A study of Mus musculus with 11 samples.

Results

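The T cell surface and costimulatory receptors described here are the products of 9 genes: Thy1, Cd2, Cd5, Cd6, Cd7, Cd28, Ctla4, Icos and Slamf6. They are listed by name, with no threshold on their values, and each was read from the probe set annotated to that symbol alone. All 9 had 1 such probe set, so they are 9 of the 19938 genes measured. Levels came from 11 Affymetrix arrays of sorted cells of C57BL/6J mice, taken as steps from blood stem cell to early T cell. Bone marrow gave HSC (haematopoietic stem cells), LMPP (lymphoid-primed multipotent progenitors) and CLP (common lymphoid progenitors), with 2 arrays each. Thymus gave ETP (early thymic precursors, 2 arrays), DN2 (double negative 2 thymocytes, 1 array) and DN3 (double negative 3 thymocytes, 2 arrays). No genotype other than the strain and no treatment is labelled for any of the groups. Neither the age of the mice, the number pooled nor the sort gates are given in the sources used here, and a receptor that served as a sort marker would differ by the sort itself.

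Mature T cells carry a set of surface proteins that tune how strongly the antigen receptor signals. Thy1 is a small glycoprotein held in the membrane by a lipid anchor and is a classic marker of mouse thymocytes. Cd7, Cd2, Cd5 and Cd6 are transmembrane glycoproteins of T cells and some related lymphocytes: Cd2 binds Cd48 in mice and helps cells adhere, while Cd5 and Cd6 are scavenger receptor family proteins that act mainly as brakes. Slamf6 is a member of the SLAM family, which signals through the adaptor SAP, the product of Sh2d1a. Cd28, Ctla4 and Icos are related receptors: Cd28 gives the main costimulatory signal on binding Cd80 or Cd86, Ctla4 binds the same ligands and inhibits, and Icos is a costimulator that binds Icosl. Double negative thymocytes have neither Cd4 nor Cd8 on their surface, and those at DN3 rearrange the T cell receptor beta locus.

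Values are log2 intensities, so a difference of 1 is 2-fold. Array medians lay between 6.01 and 6.12 and the values of all probe sets between 2.07 and 13.77. The marker checks followed the labels for most populations. Il2ra, commonly used to sort DN2 and DN3, read from 11.23 to 11.40 in DN2 and DN3, from 6.96 to 7.68 in ETP and from 4.07 to 4.49 in marrow, and Ebf1, a B lineage factor, read 9.32 and 9.22 in CLP. Mecom, a stem cell factor, did not tell LMPP (6.90 and 7.15) from HSC (7.02 and 7.09), nor did Hlf (8.55 and 9.34 in LMPP, 8.91 and 8.32 in HSC). Other markers did: Slamf1 read 7.67 and 7.42 in HSC, against 4.01 and 4.41 in LMPP. Flt3 read 7.38 and 7.13 in HSC, against 10.48 and 10.75 in LMPP. For ETP, DN2 and DN3 the description field says bone marrow but the tissue field says thymus, and the tissue field was followed. Whether the 2 arrays of a population came from separate animals is not stated, so p-values measure only the spread between these arrays, which may be technical. DN2 has no replicate, and its spread was taken from the other 5 populations. In these bulk samples, fewer cells of a type and less RNA per cell cannot be told apart.

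Of the 9 receptor genes, 7 differed among the 6 populations and 2, Cd5 and Cd6, did not pass the F test (limma, p adjusted by Benjamini-Hochberg over the 19938 genes, called under 0.05), where 12.2% of all genes were called. The profiles of those 7 were of several kinds. Thy1 climbed through the thymus, Cd7 peaked in ETP, Icos had its highest mean in CLP, and Cd28, Ctla4 and Slamf6 were high in both CLP and DN3. Cd2 was highest in DN3 alone. The range between the highest and the lowest population mean was 5.24 for Thy1, 4.35 for Slamf6, 3.56 for Cd28, 3.27 for Ctla4, 3.18 for Cd7, 1.69 for Icos, 1.24 for Cd2, 0.59 for Cd5 and 0.51 for Cd6.

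**Figure D1:**
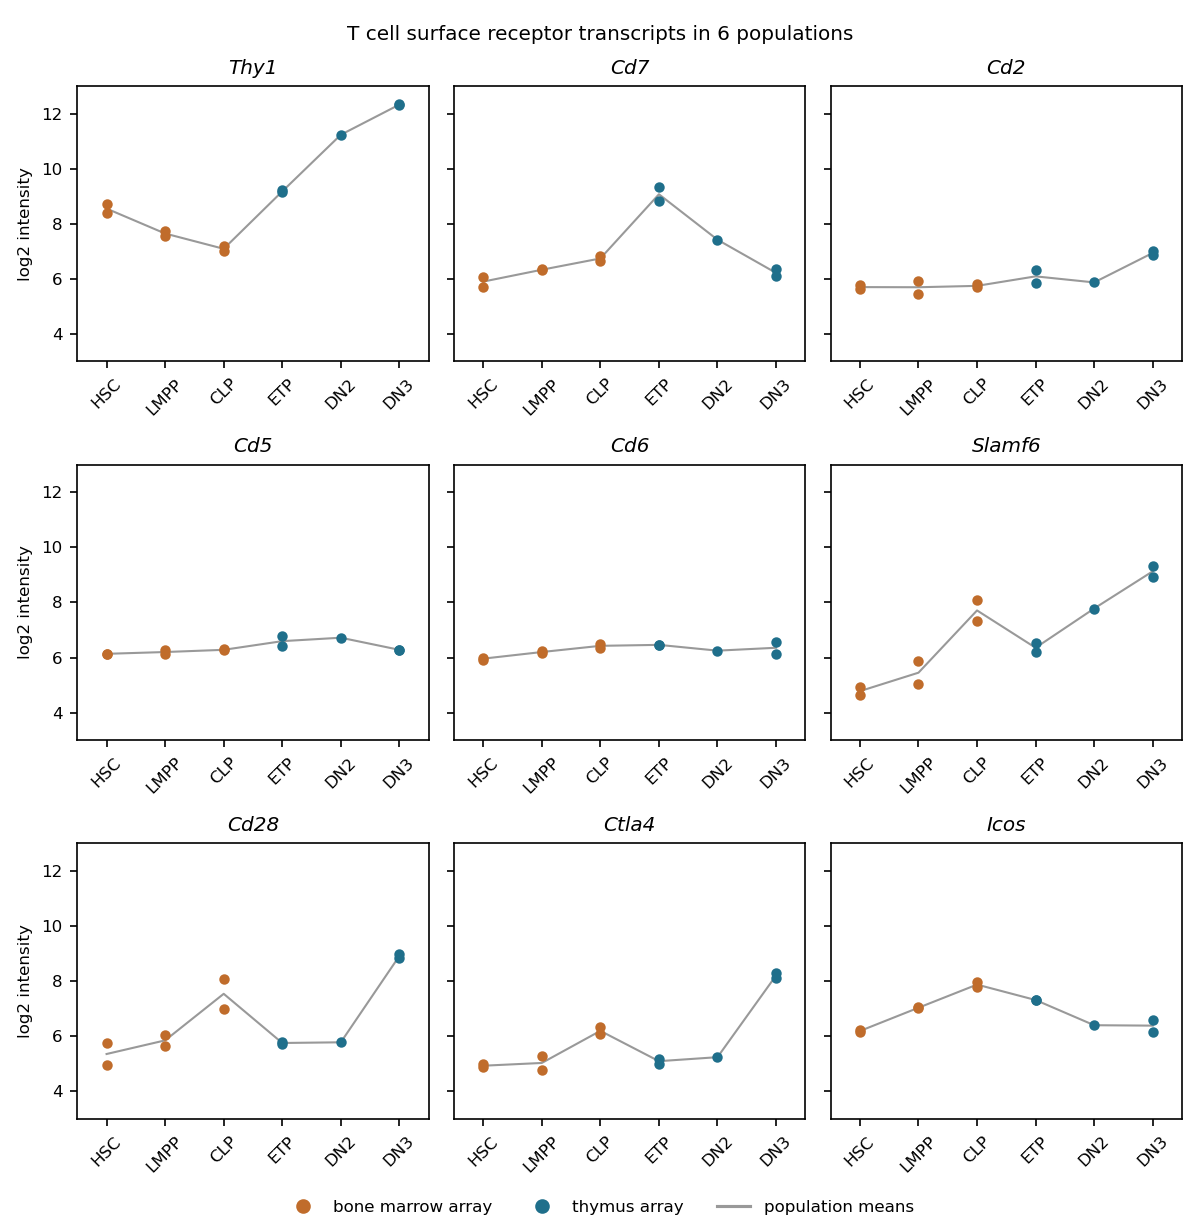
Level of each of the 9 receptor genes (log2 intensity, vertical axis) on every array, by population from HSC to DN3; orange points are bone marrow arrays, blue points thymus arrays, and lines join population means. Thy1 reaches 12.34 and 12.31 in DN3, Cd7 peaks at 8.81 and 9.33 in ETP, and Cd28, Ctla4 and Slamf6 each have a first high point in CLP and a second in DN3.

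Thy1 read 8.70 and 8.40 in HSC, 7.56 and 7.73 in LMPP, 7.18 and 7.00 in CLP, 9.21 and 9.14 in ETP, 11.23 in DN2 and 12.34 and 12.31 in DN3. No 2 populations overlapped: HSC stood above the other marrow populations, CLP was lowest, and each thymic population stood above the one before it. Thy1 was lower in LMPP than in HSC (log2 difference −0.90, SE 0.13; 1.87-fold, limma adjusted p = 0.00489). It was higher in ETP than in CLP (2.08, SE 0.13; 4.24-fold, limma adjusted p = 1.62e-05), and LMPP gave a like comparison (ETP against LMPP 1.53, 2.89-fold, limma adjusted p = 0.00017). It rose again in DN2 against ETP (2.05, SE 0.16; 4.15-fold, limma adjusted p = 0.000322) and in DN3 against DN2 (1.10, SE 0.16; 2.14-fold, limma adjusted p = 0.006). In the order DN3, DN2, ETP, HSC, LMPP, CLP every neighbouring pair of levels passed the test except LMPP and CLP (difference 0.55, limma adjusted p = 0.105). DN3 stood 37.7-fold above CLP (limma adjusted p = 1.35e-08). The step of ETP over HSC was small (0.63; 1.54-fold, limma adjusted p = 0.0213) and was not called without HSC replicate 2 or either ETP replicate.

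Cd7 read 5.72 and 6.08 in HSC, 6.32 and 6.34 in LMPP, 6.84 and 6.64 in CLP, 8.81 and 9.33 in ETP, 7.42 in DN2 and 6.34 and 6.09 in DN3. Both ETP arrays stood above all others, DN2 was next, and the DN3 arrays lay among those of HSC and LMPP. Cd7 was 5.04-fold higher in ETP than in CLP (2.33, SE 0.19; limma adjusted p = 6.53e-05) and 6.7-fold higher than in LMPP (2.74, SE 0.19; limma adjusted p = 3.27e-05). It was lower in DN2 than in ETP (−1.66, SE 0.23; 3.15-fold, limma adjusted p = 0.0063) and lower in DN3 than in ETP (−2.86, SE 0.19; 7.25-fold, limma adjusted p = 4.26e-06). The further difference of DN3 from DN2 (−1.20, SE 0.23; 2.3-fold, limma adjusted p = 0.0244) was lost without either DN3 replicate. Thy1 and Cd7, both classic T lineage antigens, therefore moved the same way at entry to the ETP stage and opposite ways after it.

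Cd7 is also carried by natural killer and innate lymphoid cells, so their markers are set beside it. Of 9 measured markers of those cells 2 rose in ETP against CLP, the granzyme Gzma and the granule protein Nkg7, and 3 rose against LMPP, with the receptor chain Klrd1 added. Of all genes 1.41% were called higher in ETP against CLP and 1.44% in ETP against LMPP. The summed intensity of the 9 markers ran from 1739 to 2195 in ETP, against 1011 to 1313 in CLP, 655 to 705 in LMPP and 1204 to 1357 in HSC. It was 2199 in DN2 and 3051 and 3053 in DN3. Gzma was the brightest of the 9 in DN3, at 11.16 and 11.21, and weighed most in the DN3 sums. In DN3 against ETP the markers split: Gzma was higher (4.09), while Klrd1 (−3.22) and Nkg7 (−1.53) were lower, as Cd7 was. Ncr1, a defining receptor of natural killer cells, stayed between 3.92 and 4.40 on all 11 arrays. The part of such cells in the Cd7 level was not tested.

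Slamf6 read 4.93 and 4.63 in HSC, 5.86 and 5.04 in LMPP, 7.34 and 8.08 in CLP, 6.20 and 6.51 in ETP, 7.78 in DN2 and 8.94 and 9.32 in DN3. CLP and DN2 shared a level, DN3 stood above both, and HSC was lowest without overlap. Slamf6 was 4.78-fold higher in CLP than in LMPP (2.26, SE 0.29; limma adjusted p = 0.00353) and 7.61-fold higher than in HSC. It was lower in ETP than in CLP (−1.35, SE 0.29; 2.55-fold, limma adjusted p = 0.0381), a call that ended without CLP replicate 2 or without either replicate of HSC, ETP or DN3, with arrays centred on their medians and with the arrays of the 2 populations fitted alone. In thymus it was 6.82-fold higher in DN3 than in ETP (2.77, SE 0.29; limma adjusted p = 0.000153). Neither part of that step passed the test, at 1.42 for DN2 against ETP (limma adjusted p = 0.14) and 1.35 for DN3 against DN2 (limma adjusted p = 0.126). In the order of its levels, DN3, DN2, CLP, ETP, LMPP, HSC, the one neighbouring pair called was CLP and ETP.

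Cd28 read 4.94 and 5.77 in HSC, 6.04 and 5.66 in LMPP, 8.08 and 7.00 in CLP, 5.72 and 5.79 in ETP, 5.78 in DN2 and 8.99 and 8.84 in DN3. CLP and DN3 stood clear of the other 4 populations, which overlapped, and the CLP arrays differed by more than those of any other population. Cd28 was higher in CLP than in LMPP (1.69, SE 0.33; 3.23-fold, limma adjusted p = 0.0394), a call that ended without either replicate of LMPP, ETP or DN3 or without CLP replicate 1. It was lower in ETP than in CLP (−1.79, SE 0.33; 3.45-fold, limma adjusted p = 0.0174), which was not called without CLP replicate 1 or either ETP replicate, nor with the arrays of the 2 populations alone. The thymic step was larger and was called with any 1 array left out: Cd28 was 8.93-fold higher in DN3 than in ETP (3.16, SE 0.33; limma adjusted p = 0.000145) and 8.78-fold higher than in DN2 (3.13, SE 0.40; limma adjusted p = 0.00215). DN3 also stood above CLP (1.37; 2.59-fold, limma adjusted p = 0.0262), but not without CLP replicate 2 or either DN3 replicate, nor with quantile normalization once more.

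Ctla4, the inhibitory counterpart of Cd28, read 4.88 and 4.98 in HSC, 5.29 and 4.77 in LMPP, 6.32 and 6.07 in CLP, 5.01 and 5.18 in ETP, 5.24 in DN2 and 8.13 and 8.28 in DN3. Its order matched that of Cd28 at the top: DN3 first, then CLP, then 4 populations that overlapped. Ctla4 was 2.24-fold higher in CLP than in LMPP (1.16, SE 0.17; limma adjusted p = 0.00831), a call lost without LMPP replicate 2 or CLP replicate 1. It was 2.14-fold lower in ETP than in CLP (−1.10, SE 0.17; limma adjusted p = 0.00625), a call lost without CLP replicate 1 or ETP replicate 1. In thymus it was 8.64-fold higher in DN3 than in ETP (3.11, SE 0.17; limma adjusted p = 1.19e-06) and 7.8-fold higher than in DN2 (2.96, SE 0.21; limma adjusted p = 3.39e-05). Its difference between DN3 and CLP was called with any 1 array left out (2.01; 4.04-fold, limma adjusted p = 2.74e-05).

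Icos read 6.15 and 6.23 in HSC, 7.05 and 7.02 in LMPP, 7.96 and 7.79 in CLP, 7.30 and 7.33 in ETP, 6.40 in DN2 and 6.17 and 6.60 in DN3. It climbed in marrow and was low in DN2 and DN3, whose arrays lay beside those of HSC. Icos was higher in LMPP than in HSC (0.85, SE 0.14; 1.8-fold, limma adjusted p = 0.00997) and in CLP than in LMPP (0.84, SE 0.14; 1.8-fold, limma adjusted p = 0.0202). The first call was lost without HSC replicate 1 or either LMPP replicate, and the second without either replicate of LMPP or CLP. CLP stood 3.23-fold above HSC (1.69; limma adjusted p = 4.48e-05). Icos was lower in DN3 than in ETP (−0.93, SE 0.14; 1.91-fold, limma adjusted p = 0.0024) and in DN2 than in ETP (−0.91, SE 0.18; 1.88-fold, limma adjusted p = 0.0417), the second being lost in 12 of 18 alternatives, among them leaving out either replicate of HSC, LMPP, CLP or ETP. In the order CLP, ETP, LMPP, DN2, DN3, HSC no neighbouring pair was called, and CLP and ETP came closest (0.56, limma adjusted p = 0.0842).

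Cd28, Ctla4 and Icos are neighbours in that order on chromosome 1 in RefSeq, and the 3 were all higher in CLP than in LMPP. In DN3 against ETP, Cd28 and Ctla4 were higher and Icos was lower. Over the 11 arrays the level of Cd28 followed that of Ctla4 with Pearson r = 0.96, a description that rests on arrays shared by both genes and on the steps between 6 populations. Slamf6 followed Ctla4 with r = 0.86 and Cd28 with r = 0.83. Thy1 and Icos ran against each other with r = −0.62.

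Because Cd28, Ctla4, Icos and Slamf6 shared a high level in CLP, markers of other cell types were read there. In CLP against LMPP 0.602% of all genes were called higher and 0.542% lower. Of 5 measured B lineage markers 2 rose in CLP against LMPP (Cd79b and Ebf1), and the summed intensity of the 5 was 1123 to 1182 in CLP, against 331 to 395 in LMPP. Ebf1, also used here as a marker of LMPP and CLP, was the brightest of the 5 in CLP. The Cd79b call was lost without LMPP replicate 2 or either CLP replicate. Of 5 plasmacytoid dendritic markers 3 rose (Siglech, Ly6d and Irf8), with sums of 3279 to 3857 in CLP against 1377 to 1460 in LMPP. Ly6d, also used here as a marker of LMPP and CLP, read 10.63 and 10.68 in CLP, against 6.83 and 6.94 in LMPP. It was the brightest of the 5 in CLP and weighed most in the CLP sums. The Irf8 call was lost with any 1 of 9 arrays left out. Siglech itself read 7.75 and 8.36 in CLP, against 5.85 and 5.85 in LMPP. Of 9 later thymocyte and mature T cell markers none was called, and their summed intensity was 2056 to 2898 in CLP, against 1474 to 1791 in LMPP, and highest in CLP of all populations. Cd69, an early activation antigen, read 10.98 and 10.35 in CLP, against 10.02 and 9.64 in LMPP. It was the brightest of the 9 in both populations and weighed most in these sums. Ccr7 and Klf2, which guide mature T cell traffic, also had their highest means in CLP. Cd4 read 5.68 and 5.64 in CLP, against 6.16 and 5.68 in LMPP. Of 9 natural killer and innate lymphoid markers Klrd1 rose, and of 4 gamma delta T markers Blk, a kinase that B cells also carry. The Blk call was lost with any 1 of 6 arrays left out. The part of admixed cells in the CLP levels was not tested.

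Cd2 read 5.63 and 5.77 in HSC, 5.93 and 5.46 in LMPP, 5.80 and 5.69 in CLP, 5.85 and 6.33 in ETP, 5.87 in DN2 and 6.88 and 7.00 in DN3. DN3 stood above all the other arrays, which overlapped. Cd2 was 1.8-fold higher in DN3 than in ETP (0.85, SE 0.18; limma adjusted p = 0.0193) and 2.1-fold higher than in DN2 (1.07, SE 0.23; limma adjusted p = 0.0442). The first call was lost without ETP replicate 1 or either DN3 replicate and the second without either replicate of HSC, CLP or DN3 and with arrays centred on their medians. Without either DN3 replicate the F test over the populations was not passed either.

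Cd5 read 6.14 and 6.13 in HSC, 6.13 and 6.27 in LMPP, 6.26 and 6.30 in CLP, 6.77 and 6.42 in ETP, 6.72 in DN2 and 6.28 and 6.28 in DN3. ETP and DN2 were the highest arrays, by small amounts, and no pair of populations passed (F test adjusted p = 0.0983, and 0.0496 without ETP replicate 2). Cd6, which lies next to Cd5 on chromosome 19, read 5.92 and 6.00 in HSC, 6.25 and 6.15 in LMPP, 6.50 and 6.35 in CLP, 6.45 and 6.47 in ETP, 6.25 in DN2 and 6.14 and 6.57 in DN3. The DN3 arrays alone spanned most of the range of the other populations (F test adjusted p = 0.221). A p that misses the threshold does not show that Cd5 and Cd6 were level.

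The 9 receptors were then counted step by step, against the share of all genes called. In DN3 against ETP 7 of 9 were called, 5 higher (Thy1, Cd2, Cd28, Ctla4 and Slamf6) and 2 lower (Cd7 and Icos), where 6.57% of all genes were called, 2.68% higher and 3.89% lower. The median change was 0.85 for the 9 and −0.003 for all genes. In DN3 against DN2 5 were called, 4 higher and 1 lower (background 1.8%, with 0.702% higher and 1.09% lower), and in DN2 against ETP 3 were called, with Thy1 higher and Cd7 and Icos lower (background 0.998%, with 0.321% higher and 0.677% lower). DN2 shares its 1 array between these steps, and the DN2 and DN3 values of a gene are best read side by side. Cd28 and Ctla4 differed from ETP by 0.02 and 0.15 in DN2 and by 3.16 and 3.11 in DN3.

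**Figure D2:**
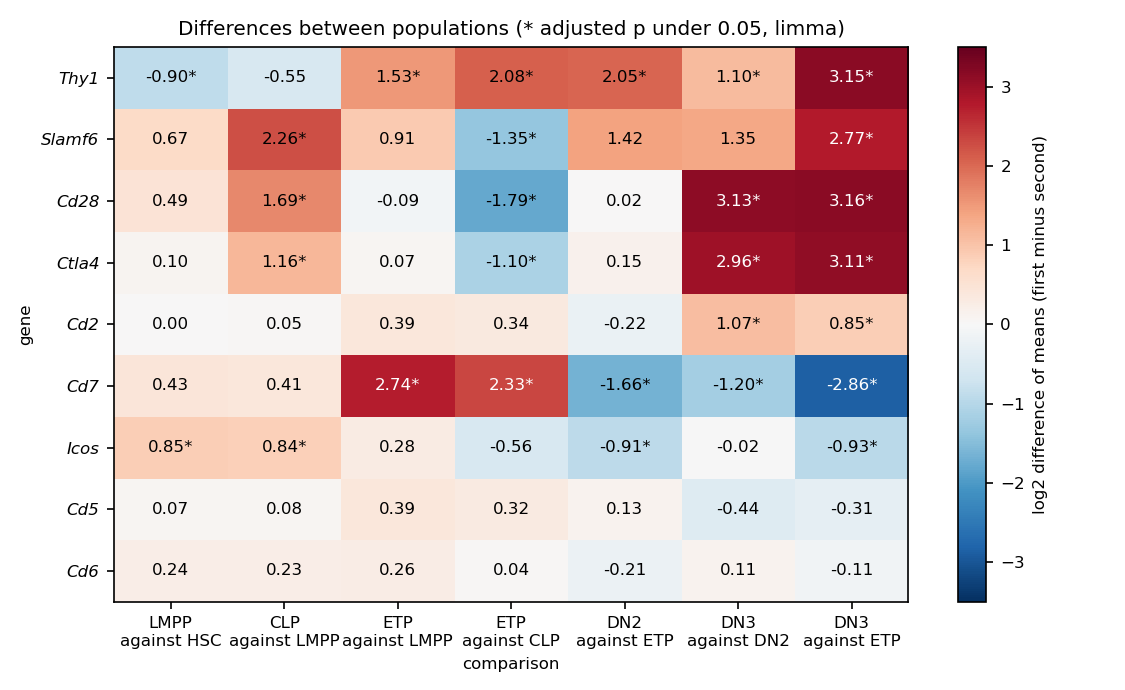
Heat map of the log2 difference between population means, first population minus second, for each receptor gene (rows) in 7 comparisons (columns); red is higher in the first population, blue is lower, and an asterisk marks limma adjusted p under 0.05. In DN3 against ETP the called genes run from Cd7 at −2.86 to Cd28 at 3.16, and Cd5 and Cd6 have no asterisk.

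At thymic entry 5 of 9 were called in ETP against CLP, with Thy1 and Cd7 higher and Cd28, Ctla4 and Slamf6 lower (background 2.52%, with 1.41% higher and 1.1% lower). The median change over the 9 was 0.04. Against LMPP, Thy1 and Cd7 were the 2 called, both higher in ETP (background 2.31%, with 1.44% higher and 0.868% lower). In marrow 4 were called in CLP against LMPP, all higher (Cd28, Ctla4, Icos and Slamf6; background 1.14%, with 0.602% higher and 0.542% lower), and 2 in LMPP against HSC, with Icos higher and Thy1 lower (background 2.94%, with 1.23% higher and 1.71% lower). In both marrow steps no call was left when the arrays of the 2 populations were fitted alone. Calls over all 19938 genes also fell in those fits, from 228 to 67 in CLP against LMPP and from 586 to 137 in LMPP against HSC. The comparisons with CLP share its 2 arrays, and those with LMPP share the LMPP arrays.

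The pairs of populations that skip a step gave the longer distances. DN3 differed from CLP in 6 of 9 (background 8.69%), from LMPP in 6 (10%) and from HSC in 5 (9.6%). DN2 differed from CLP in 4 of 9 (2.76%), from LMPP in 3 (3.06%) and from HSC in 3 (3.99%), and ETP differed from HSC in 4 (5.13%) and CLP from HSC in 6 (6.28%). DN3 against HSC gave the largest Slamf6 difference (4.35; 20.4-fold higher, limma adjusted p = 3.51e-06), and Slamf6 was already higher in DN2 than in HSC (3.00). Cd7 was 9.05-fold higher in ETP than in HSC (3.18; limma adjusted p = 5.72e-06). In CLP against HSC, Cd28 was higher by 2.19, Ctla4 by 1.26 and Cd7 by 0.84, and Thy1 differed by −1.46. The Cd7 difference was lost without HSC replicate 1 or either CLP replicate and with array weights. Icos was 2.82-fold lower in DN3 than in CLP (−1.50; limma adjusted p = 7.61e-05) and was lower in DN2 too (−1.48; limma adjusted p = 0.00106). In DN2 against CLP, Cd28 (−1.76, limma adjusted p = 0.0476) and Ctla4 (−0.95, limma adjusted p = 0.0393) were lower, calls lost without either replicate of ETP or DN3 and in further alternatives.

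Thymus was set against bone marrow as the mean of its 3 population means minus that of the 3 marrow means. By this contrast 6 of 9 were higher in thymus and 1, Icos, was lower (background 10.6%, with 5.95% higher and 4.69% lower). Thy1 averaged 10.91 in thymus and 7.76 in marrow (3.15, limma adjusted p = 1.27e-08), and Slamf6, Cd7, Ctla4, Cd2 and Cd5 differed by 1.78, 1.25, 0.80, 0.58 and 0.33. Icos differed by −0.33 (limma adjusted p = 0.0401), a call lost in 13 of 20 alternatives, and the Cd5 call (limma adjusted p = 0.0281) was lost without replicate 1 of LMPP, CLP or ETP or either DN3 replicate. Among the 7 called, Thy1 was the one whose arrays did not overlap between the tissues. The share of all genes without such overlap was not counted. When the 5 thymic and 6 marrow arrays were instead taken as 2 groups, 1 of the 9, Thy1, was called, with or without the population as a random block. Of all 19938 genes 476 were called without that block and 288 with it, against 2122 in the main contrast. Tissue and population cannot be told apart here, since each population came from 1 tissue.

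Of the 9, promoter sequence was at hand for Ctla4, Slamf6 and Cd5, shown because the first pair rose together in CLP and again in DN3 while Cd5 was called between no pair of populations. Each line gives the 250 bases before the RefSeq start of the gene, 5′ to 3′ on its own strand, in build GRCm38.p6. Ctla4 is at chr1:60908775-60909024 on the plus strand, Slamf6 at chr1:171917212-171917461 on the plus strand and Cd5 at chr19:10738975-10739224 on the minus strand. Capitals mark matches to 7 motifs of 6 letters, searched on both strands and named for the factors that bind such sites.
Ctla4: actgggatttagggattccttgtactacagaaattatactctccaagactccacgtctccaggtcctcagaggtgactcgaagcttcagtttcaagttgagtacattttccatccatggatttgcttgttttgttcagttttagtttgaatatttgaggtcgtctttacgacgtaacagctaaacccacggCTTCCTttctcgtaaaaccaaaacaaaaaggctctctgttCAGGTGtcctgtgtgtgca
Slamf6: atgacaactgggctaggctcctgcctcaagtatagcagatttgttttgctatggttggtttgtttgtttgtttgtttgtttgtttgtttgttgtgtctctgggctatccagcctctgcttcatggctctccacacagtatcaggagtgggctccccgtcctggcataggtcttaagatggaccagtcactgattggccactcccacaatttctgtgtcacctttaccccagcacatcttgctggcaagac
Cd5: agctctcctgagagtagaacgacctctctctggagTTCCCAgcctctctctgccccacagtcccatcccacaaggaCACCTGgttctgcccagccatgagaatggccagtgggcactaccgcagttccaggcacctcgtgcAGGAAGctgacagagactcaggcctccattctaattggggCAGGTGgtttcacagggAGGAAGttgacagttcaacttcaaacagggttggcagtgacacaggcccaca
The E box CAGGTG occurred in Ctla4 at 19 to 14 bases before the start and in Cd5 at 174 to 169 (reverse strand) and at 69 to 64. The ETS motif AGGAAG occurred in Ctla4 at 59 to 54 (reverse strand) and in Cd5 at 109 to 104 and at 52 to 47, and the RBPJ motif TGGGAA in Cd5 at 215 to 210 (reverse strand). The Slamf6 window held none of the 7 in these letters. CAGGTG was present in 17.2% of the 32851 such windows in the table, AGGAAG in 29.5% and TGGGAA in 21.6%. The other motifs were the E box CAGCTG (13%), TGTGGT for RUNX factors (14%), AGATAA for GATA factors (9.99%) and CTTTGA for TCF and LEF factors (13.8%). Both E box motifs share the outer letters CANNTG, and no matches overlapped. A match is a description of letters, not a bound site.

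Genes around the receptors were read from lists of relatives, ligands and signalling partners. In DN3 against ETP the 2 largest changes among these lists were in SLAM signalling. Of 10 measured SLAM family genes and adaptors other than Slamf6, 2 rose and 5 fell, with a list median of −0.65 against −0.003 for all genes. Of all genes 2.68% were called higher and 3.89% lower. Sh2d1a, which encodes the adaptor SAP, read 10.33 and 10.28 in DN3, against 4.86 and 5.80 in ETP (4.97; 31.4-fold higher, limma adjusted p = 3.95e-07). Cd244a, the receptor 2B4 of natural killer cells, read 5.56 and 5.49 in DN3, against 9.19 and 9.22 in ETP (−3.68; 12.8-fold lower, limma adjusted p = 2.94e-07). Slamf1, a family receptor known on stem cells, was higher by 1.34 in DN3, while Sh2d1b1, which encodes the related adaptor EAT-2, changed by −1.95, Slamf7 by −1.63, Cd48 by −1.39 and Ly9 by −0.61. The Ly9 call was lost without either ETP replicate or DN3 replicate 2. In DN3, Slamf6 and the adaptor Sh2d1a were thus both high, and Cd244a and Sh2d1b1 were at their lowest means of the 6 populations. In CLP, where Slamf6 had its first high level, Sh2d1a read 4.82 and 4.77 and Sh2d1b1 6.16 and 6.52.

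**Figure D3:**
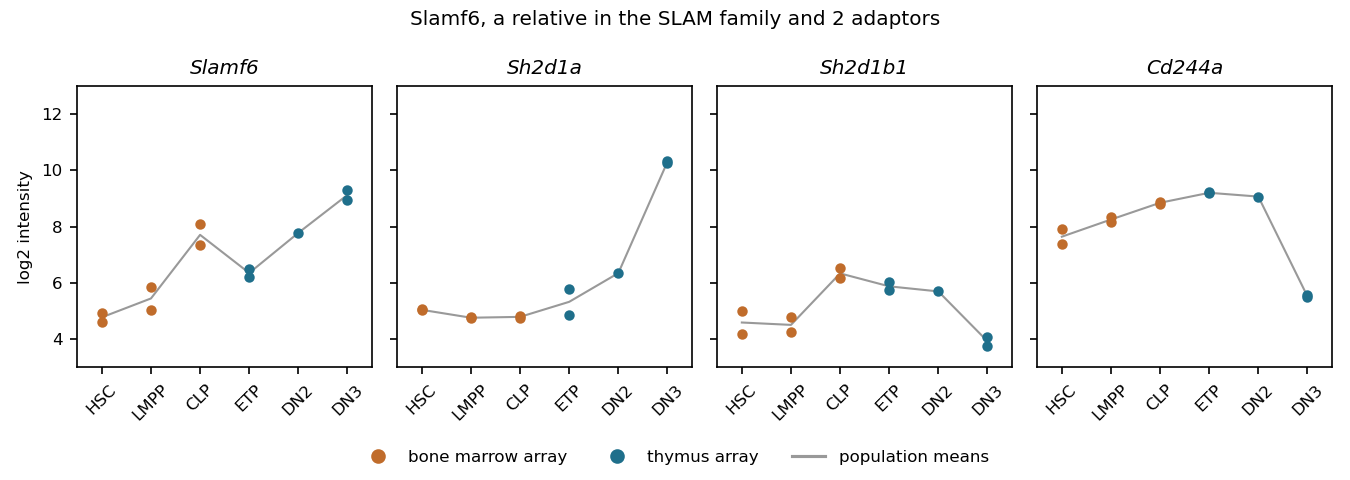
Level of Slamf6, of the adaptor genes Sh2d1a and Sh2d1b1 and of the SLAM family relative Cd244a (log2 intensity) on every array by population. Orange points are bone marrow arrays, blue points thymus arrays, and lines join means. Sh2d1a is near 5 in marrow and above 10 in DN3, and Cd244a falls to 5.56 and 5.49 in DN3.

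In DN3 against ETP, the other inhibitory and costimulatory receptors that were called went the other way from Cd28 and Ctla4. Of 17 measured, none rose and 5 fell (list median −0.05, background 2.68% higher and 3.89% lower). These were Havcr2, the receptor TIM-3 (−2.28, 4.85-fold lower), Cd160, a receptor of natural killer and T cells (−1.70, 3.24-fold lower), Cd27 and Btla (−0.76 each) and Lag3 (−0.65). The count that fell was 2 without either ETP replicate or DN3 replicate 2 and 4 without DN3 replicate 1. Pdcd1, the inhibitory receptor PD-1, read 6.01 and 6.50 in DN3, against 5.81 and 5.93 in ETP. In DN3 against DN2, Cd200, an inhibitory ligand and surface glycoprotein, rose by 1.03, a call lost without either DN3 replicate. Havcr2 and Cd160 fell in that comparison. In DN3 against CLP, Cd96 (0.90), Cd160 (0.66) and Cd200 (0.53) rose, while Havcr2 (−1.55) and Btla (−1.16) fell. The called genes of the list were thus split in those comparisons. In CLP against LMPP, where Cd28, Ctla4 and Icos rose, none of the 17 was called (background 1.14%).

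Of 12 ligands of these receptors and of their relatives none rose and 4 fell in DN3 against ETP (list median −0.31; background 2.68% higher and 3.89% lower). Cd86, a ligand of both Cd28 and Ctla4, read 4.91 and 4.62 in DN3, against 6.45 and 7.16 in ETP (−2.04; 4.11-fold lower, limma adjusted p = 0.000151). Cd48, the mouse ligand of Cd2 and of 2B4, was 2.62-fold lower, Alcam, the ligand of Cd6, changed by −0.85 and Cd274, the ligand of PD-1, by −0.55. The count that fell was 2 without ETP replicate 1 or DN3 replicate 2. The Cd274 call was lost without either replicate of HSC, LMPP, ETP or DN3. Cd2 and Cd28 thus stood higher in DN3 than in ETP while a ligand of each stood lower, all measured as transcripts in the same sorted cells.

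Of 17 measured signalling partners 5 rose and 1 fell in DN3 against ETP (list median 0.17, background 2.68% higher and 3.89% lower). Prkcq, a protein kinase C recruited by Cd28, read 8.91 and 8.92 in DN3, against 7.11 and 7.54 in ETP (1.59; 3.02-fold). Grap2, an adaptor that binds Cd28, rose by 1.58 and Cblb, a ubiquitin ligase that restrains costimulated signalling, by 1.57, with smaller gains of Sh2d2a (0.66) and Ubash3a (0.57). Pstpip1, which binds the tail of Cd2, changed by −0.67. The counts became 3 and 0 without ETP replicate 2 or DN3 replicate 2, 4 and 0 without ETP replicate 1 or DN3 replicate 1, and 7 and 1 without either HSC replicate.

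Thy1 was set beside other lipid-anchored and Ly6 family surface proteins. Of 9 measured, 3 rose and 2 fell in DN3 against ETP (list median 0.12, background 2.68% higher and 3.89% lower). Ly6d, a marker of B-biased CLP, rose by 2.88, Cd59a, a complement regulator, by 1.41 and Ly6k by 1.35. Cd52, a short glycoprotein of lymphocytes, read 7.35 and 6.95 in DN3, against 10.02 and 10.18 in ETP (−2.95; 7.74-fold lower), and Cd48 is the other that fell. The counts became 1 and 3 without ETP replicate 1 and 2 and 2 without DN3 replicate 2. Unlike Thy1, Ly6d was also high in CLP, at 10.63 and 10.68.

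**Figure D4:**
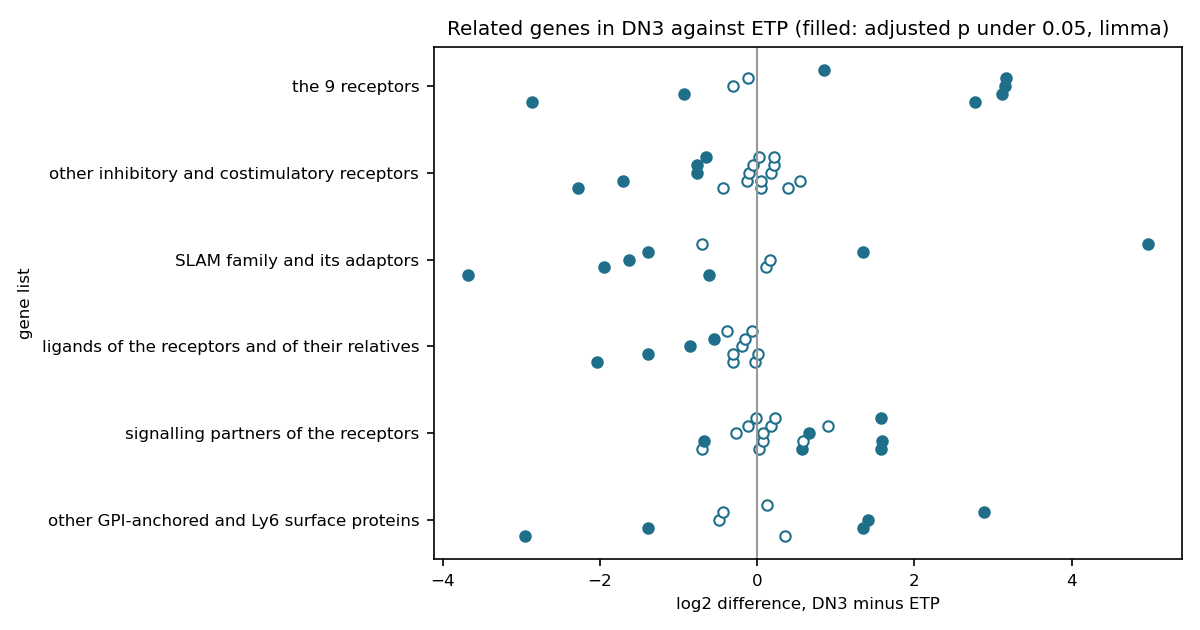
Log2 difference, DN3 minus ETP (horizontal axis), for each gene of the 5 lists of relatives, ligands, signalling partners and lipid-anchored proteins, with the 9 receptor genes above them; filled points passed limma at adjusted p under 0.05. Sh2d1a at 4.97 and Cd244a at −3.68 lie farthest from 0.

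Markers of other thymic cells were read beside the DN3 gains, in a comparison where 2.68% of all genes were called higher and 3.89% lower. Of 9 later thymocyte and mature T cell markers 1 rose in DN3 against ETP, the Cd8 beta chain gene Cd8b1 (6.50 and 6.26 in DN3, against 5.33 and 5.55 in ETP), and Cd69 fell. Their summed intensity was 677 and 680 in DN3 and 822 to 846 in ETP. Of 8 stromal, epithelial and endothelial markers 1 rose, the epithelial adhesion molecule Epcam (7.20 and 7.23 in DN3, against 4.99 and 4.99 in ETP; 4.67-fold, limma adjusted p = 3.62e-07), and their sum was 914 to 928 in DN3 and 862 to 895 in ETP. Of 5 macrophage markers Csf1r fell, and none of 4 gamma delta T markers was called. The part of such cells in the DN3 levels was not tested. Cd4 read 5.49 and 5.27 in DN3, against 5.55 and 5.66 in ETP, and Foxp3, the factor of regulatory T cells, in which Ctla4 is abundant, read 6.03 and 5.98 in DN3, against 6.18 and 6.16 in ETP. Of the genes of the antigen receptor complex that mark DN3, Cd3e read 9.64 and 9.59 in DN3, against 6.26 and 6.24 in ETP, and Ptcra, which encodes the pre-T cell receptor alpha chain, 8.01 and 7.76 in DN3, against 6.38 and 6.23 in ETP.

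From the 19938 genes, predicted and unnamed genes, antigen receptor segments and histone, olfactory, vomeronasal and microRNA genes were left out. Among the rest, the genes whose profile was most like each receptor were found by Pearson correlation of the 11 arrays. Such values describe shared steps between 6 populations and carry no test. Closest to Thy1 were Gzma (r = 0.980), Ehd3 (0.979) and Lat (0.978), and closest to Cd7 were Il31ra (0.965), Sulf2 (0.964) and Ust (0.955). For Ctla4 they were Prkcb (0.978), Camkv (0.977) and Gbp11 (0.967). The gene most like Cd28 was Ctla4 itself (0.959), followed by Gbp11 (0.951) and Pld4 (0.930), so Gbp11 stood in both short lists. Slamf6 was nearest to Atp13a3 (0.959), Rhoh (0.947) and Gngt2 (0.945), Icos to Mctp2 (0.965), Klrd1 (0.959) and Stk17b (0.953), and Cd2 to Rnf19a (0.974), Hspb11 (0.960) and Fam183b (0.951). Klrd1 had its highest level, 8.70 and 8.17, in CLP, as Icos did. For Cd5 (Tmem258, 0.939) and Cd6 (B3galt5, 0.937), whose own range was under 1, the likeness rests on small differences.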

How the data were processed

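Total RNA of sorted cells was hybridised to 11 Affymetrix arrays, 1 per sample, per the labels' protocols. The deposited values are log2 intensities made by the authors with RMA, per the submitters' processing notes; neither its version nor the chip definition or build is stated in the sources used here. RMA corrects background and equalises array distributions, so values near background understate folds. No detection calls were used and probe sets cannot be compared in level. Of 35556 probe sets 21789 had 1 symbol; the brightest per gene gave 19938 genes, with no filter. Groups follow the sample titles. One limma 3.58.1 fit (R 4.3.3) held 6 population means, with 5 residual degrees of freedom; tests were two-sided, with p adjusted by Benjamini-Hochberg over 19938 genes and called under 0.05. The members and lists were chosen with earlier results of these data known. Values named in the text are those of the 9 receptors, the called genes of each list, and the 3 genes most like each receptor; Pdcd1 and the levels of single markers were picked after their values were seen. Promoters came from RefSeq (GRCm38.p6), where 3 of the 9 matched. The alternatives were filters on dim genes, other scaling, variance and weighting options, the replicate number as a block, fits of 2 groups alone and leaving out each array. In simulated data with the same groups and 19938 genes, the fit recovered 76% of genes changed by 1 on the log2 scale in DN3 against ETP and 56% in DN2 against ETP. It also called 8 and 6 unchanged genes. Fewer genes were changed there than were called in the real DN3 against ETP, and noise was independent between genes. The shares recovered in the real data may therefore differ. Python 3.11.15, pandas 2.3.3 and matplotlib 3.10.9 handled tables and figures.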

Additional observations from a re-analysis of the deposited data

How the results depend on the processing

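No called difference changed direction under any alternative. Of 42 called single values, 22 stayed past the threshold in every alternative and 20 were lost in at least 1; of 39 values not called, 2 passed somewhere. Leaving out genes under the median level, which removes Cd2 and Ctla4 themselves, left 3 of 5 receptors called in DN3 against DN2. With the arrays of the 2 groups alone, 3 were called in ETP against CLP, 0 in CLP against LMPP and 0 in LMPP against HSC. These fits have fewer residual degrees of freedom, and over all genes they called 231, 67 and 137, against 502, 228 and 586 in the main fit. In thymus against bone marrow 1 was called with 2 groups of arrays, with or without a random block of population. Of all genes 476 were called without that block and 288 with it, against 2122 in the main fit. With 1 array left out in turn, the counts ran from 6 to 8 for the F test, 6 to 7 for DN3 against ETP, 3 to 5 for DN3 against DN2, 2 to 3 for DN2 against ETP, 2 to 5 for ETP against CLP, 2 to 2 for ETP against LMPP, 1 to 4 for CLP against LMPP, 1 to 2 for LMPP against HSC and 5 to 7 for the tissues, and neighbouring levels called ran from 6 to 10 against 11 of 45 with all arrays. Replicate numbers did not pair the samples by the rule used, which asks for every correlation over 0.1: of 10 correlations between populations of the differences between replicates (−0.258 to 0.283), 4 were over 0.1, and the 4 with HSC were below 0. With the replicate number as a block the counts were 7 for the F test, 7 for DN3 against ETP, 4 for DN3 against DN2, 2 for DN2 against ETP, 4 for ETP against CLP, 2 for ETP against LMPP, 3 for CLP against LMPP, 2 for LMPP against HSC, 6 for the tissues and 8 for neighbouring levels. DN2, with 1 array, limits the comparisons it enters.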
